A study of Mus musculus with 4 samples.

Results

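The 54 genes described here act in mitosis and in the passage from G2 into M phase. They were chosen by name, from what their products are known to do, with earlier results of these data known, and no measured value enters the rule. They make up 54 of the 55335 genes listed in the deposited table. They comprise mitotic cyclins and other genes of mitotic entry, regulators of anaphase, the spindle checkpoint, the chromosomal passenger complex, kinetochore proteins, mitotic kinesins, spindle assembly factors, cytokinesis genes and genes of chromosome structure. Polo-like kinases are not analysed here. All 54 passed the filter on low values (1 FPKM or more in 2 or more libraries), which left 11955 genes to test. FPKM counts the fragments of a gene per kilobase of transcript, scaled to the size of the library, so levels of different genes can be set side by side.

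RNA-seq was made from CT26, a colon carcinoma cell line of the mouse, in 4 libraries. CT26_102_R and CT26_CTL_R carry the genotype label FOSL2-KO and the treatment label Chemoradiotherapy, and CT26_102 and CT26_CTL carry the labels FOSL2-WT and PBS. Genotype and treatment change together, so their parts in any difference cannot be told apart. The suffix R coincides with the FOSL2-KO label, no label explains the CT26_102 name or the R, and the series' design text calls the cells KD (knockdown) where the genotype label says KO (knockout). The labels give no clone, dose, time or way of making the knockout, and separate cultures are not mentioned. Each labelled group holds 1 library of each name, CT26_102 or CT26_CTL, so spread between replicate libraries could not be measured. A p-value here instead rests on how the labelled difference varies between the CT26_102 and CT26_CTL pairs, pooled in part over genes. That variation may be technical. Fosl2 itself stood at 16 and 19.2 FPKM in the libraries labelled FOSL2-KO, against 9.35 and 12.7 FPKM in those labelled FOSL2-WT, a log2 difference of 0.64 ± 0.13 (adjusted p = 0.0444). The transcript of the targeted gene was thus higher, not lower, under the KO label, and whether the gene was disrupted was not tested. The groups are called libraries labelled KO and libraries labelled WT throughout. In each pair of values CT26_102_R or CT26_102 comes before CT26_CTL_R or CT26_CTL.

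Entry into mitosis depends on Cdk1 bound to A-type and B-type cyclins, and leaving it depends on the anaphase-promoting complex, a ubiquitin ligase that marks cyclins and securin for destruction. Between these steps condensin compacts the chromosomes, kinetochores attach them to spindle microtubules, and the spindle checkpoint holds back anaphase until all are attached. Many of these genes are transcribed together late in the cell cycle, through MuvB complexes and Foxm1, and are kept down in resting cells by the DREAM complex, which is known to act through a CHR element (TTTGAA) near the start site. CCAAT boxes, bound by NF-Y, are common in the same promoters.

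The promoters of 5 of the genes are shown because the largest decreases in 4 functional subgroups and the single increase belong to these genes. Each runs from 250 bases before to 50 bases after the start in RefSeq (GRCm38.p6), 5′ to 3′ on the strand of the gene. Capitals mark TTTGAA or its reverse complement TTCAAA, and CCAAT or its reverse complement ATTGG. Ccnb2 (cyclin B2) is from chr9:70421505-70421804 on the minus strand, Anln (anillin) from chr9:22389157-22389456 on the minus strand and Top2a (topoisomerase II alpha) from chr11:99024140-99024439 on the minus strand. Kif2c, a kinesin that takes microtubules apart, is from chr4:117178723-117179022 on the minus strand, and Gtse1, a microtubule-binding protein, is from chr15:85859457-85859756 on the plus strand.
Ccnb2: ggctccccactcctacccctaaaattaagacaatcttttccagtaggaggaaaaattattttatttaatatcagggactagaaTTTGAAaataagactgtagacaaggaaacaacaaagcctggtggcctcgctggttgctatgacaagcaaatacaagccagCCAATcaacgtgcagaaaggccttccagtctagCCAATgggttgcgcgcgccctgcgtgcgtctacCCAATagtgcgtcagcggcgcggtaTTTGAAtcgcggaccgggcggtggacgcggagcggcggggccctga
Anln: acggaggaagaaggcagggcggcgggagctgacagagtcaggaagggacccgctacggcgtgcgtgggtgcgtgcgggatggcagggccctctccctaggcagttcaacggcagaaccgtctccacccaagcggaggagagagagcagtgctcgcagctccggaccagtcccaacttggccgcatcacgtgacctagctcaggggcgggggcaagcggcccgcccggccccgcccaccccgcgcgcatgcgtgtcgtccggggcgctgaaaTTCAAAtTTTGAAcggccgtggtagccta
Top2a: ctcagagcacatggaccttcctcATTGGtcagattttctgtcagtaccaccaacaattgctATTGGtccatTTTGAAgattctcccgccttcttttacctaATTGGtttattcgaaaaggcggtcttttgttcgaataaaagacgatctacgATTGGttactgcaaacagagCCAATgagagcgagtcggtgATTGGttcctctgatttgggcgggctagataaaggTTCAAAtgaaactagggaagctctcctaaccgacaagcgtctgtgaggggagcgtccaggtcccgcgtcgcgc
Kif2c: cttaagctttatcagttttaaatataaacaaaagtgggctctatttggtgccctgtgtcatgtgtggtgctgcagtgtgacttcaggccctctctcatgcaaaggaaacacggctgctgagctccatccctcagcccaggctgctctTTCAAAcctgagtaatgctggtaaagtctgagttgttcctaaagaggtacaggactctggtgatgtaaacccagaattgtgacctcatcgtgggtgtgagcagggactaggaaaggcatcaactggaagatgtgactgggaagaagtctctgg
Gtse1: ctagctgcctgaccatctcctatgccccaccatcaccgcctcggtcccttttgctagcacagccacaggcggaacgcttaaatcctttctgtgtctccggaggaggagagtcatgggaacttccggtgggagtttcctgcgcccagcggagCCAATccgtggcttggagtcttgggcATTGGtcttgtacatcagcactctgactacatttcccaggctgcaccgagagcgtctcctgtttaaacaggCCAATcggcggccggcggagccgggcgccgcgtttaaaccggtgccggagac

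The Ccnb2 promoter holds TTTGAA at position 4 and again at -167, counted in bases from the start with negative positions before it, and CCAAT boxes at -87, -54 and -21. In Anln a TTCAAA at 21 and a TTTGAA at 28 lie beside each other, and no CCAAT box was found. Top2a has 6 CCAAT boxes, 5 of them on the opposite strand, and its CHR letters lie at -179 and -23. Kif2c has a single TTCAAA, at -103 from a RefSeq start that lies inside the gene as the GENCODE annotation draws it. Gtse1 has CCAAT boxes at -99, -73 and -2 and no TTTGAA on either strand. RefSeq lists 2 starts for Gtse1, of which the one nearer to the GENCODE start is shown.

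Over all genes, 44 of the 54 had a promoter in the RefSeq table, and 32 of these (72.7%) held the CHR letters on either strand, against 14.1% of the 8308 tested genes with a promoter and 20.2% of the 27025 genes in the table. CCAAT boxes were found in 34 of 44 (77.3%), against 43.8% of the tested genes and 41.1% of the table. Both motifs stood in 28 of 44 (63.6%), against 5.93% of the tested genes. The letters of the 2 motifs cannot overlap at more than their ends. In 30 genes a CHR match lay between 100 bases before and 50 bases after the start. CCAAT boxes lay in that window in 30 genes. Over all matches in the full promoters, at every listed start, the median position was -5 for the CHR letters and -72 for CCAAT boxes. The CHR letters were present in 16 of 21 (76.2%) genes that fell between the labelled groups and in 16 of 23 (69.6%) of the others, and CCAAT boxes in 16 of 21 (76.2%) and 18 of 23 (78.3%). A match of letters is not a bound site.

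The libraries held an estimated 21.61 to 26.37 M reads (M for mega), so that a single read on a 2-kilobase transcript adds 0.019 to 0.0231 FPKM. Each of the 54 genes had at least 1.29 FPKM in every library, well above this step. The markers set against the label of colon adenocarcinoma cells were mixed. Of 11 epithelial markers 4 reached 1 FPKM in any library, with Epcam and Cdx2 at 0 in all 4 libraries. Krt18 stood at 39.6 and 76.5 FPKM in the libraries labelled KO, against 34.7 and 42.5 FPKM in those labelled WT, and Krt20 at 27.4 and 36.8 FPKM in the libraries labelled KO, against 27.3 and 24.5 FPKM in those labelled WT. The whole list summed to 72.2 and 115 FPKM in the libraries labelled KO, against 67.1 and 68.4 FPKM in those labelled WT. All 8 mesenchymal markers reached 1 FPKM, and they summed to 683 and 646 FPKM in the libraries labelled KO, against 945 and 801 FPKM in those labelled WT. Most of that sum was Vim, at 535 and 503 FPKM in the libraries labelled KO, against 782 and 640 FPKM in those labelled WT, while Snai1 had 11.6 and 10.8 FPKM in the libraries labelled KO, against 8.30 and 5.71 FPKM in those labelled WT. Leukocyte markers, of which 2 of 12 reached 1 FPKM and Cd3e was at 0, summed to 57 and 5.32 FPKM in the libraries labelled KO, against 16.8 and 15 FPKM in those labelled WT. Nearly all of it was Lyz2, at 53.1 and 4.36 FPKM in the libraries labelled KO, against 15 and 13.1 FPKM in those labelled WT, and Ptprc was at most 0.088 FPKM. Of 5 endothelial markers 0 reached 1 FPKM and Cdh5 was at 0, and of 4 erythroid markers 1 did. The part of these marker lists in the results below was not tested.

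Between the labelled groups 25 of the 54 mitosis genes fell in the libraries labelled KO (46.3%), 1 rose (Gtse1) and 28 did not pass, while 5.32% of all tested genes fell and 7.57% rose. The median log2 difference over the 54 genes was -0.56, against 0.004 over all tested genes. The test was limma with the labelled group and the title stem (CT26_102 or CT26_CTL) as terms, adjusted over all tested genes. "Fell" and "rose" mean an adjusted p under 0.05 in it, log2 differences are on the log2(FPKM + 1) scale, and errors written with ± are its standard errors. The calls rest on this fit. With the group as the only term, 0 of the 54 genes and 1 of all tested genes passed, and 22 of the 54 had an unadjusted p under 0.05, against 10.7% of all tested genes. Without the filter on low values 0 genes passed, and 43 of the 54 had an unadjusted p under 0.05, against 17.8% of the 27670 genes in that fit. With upper-quartile rescaling 34 of the 54 fell and 1 rose, and over all genes 8.46% fell and 7.84% rose. Of the 25 adjusted p-values, 9 were at least 0.04. In bulk RNA, fewer cells in G2 or mitosis and less RNA of these genes per cell cannot be told apart.

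**Figure D1:**
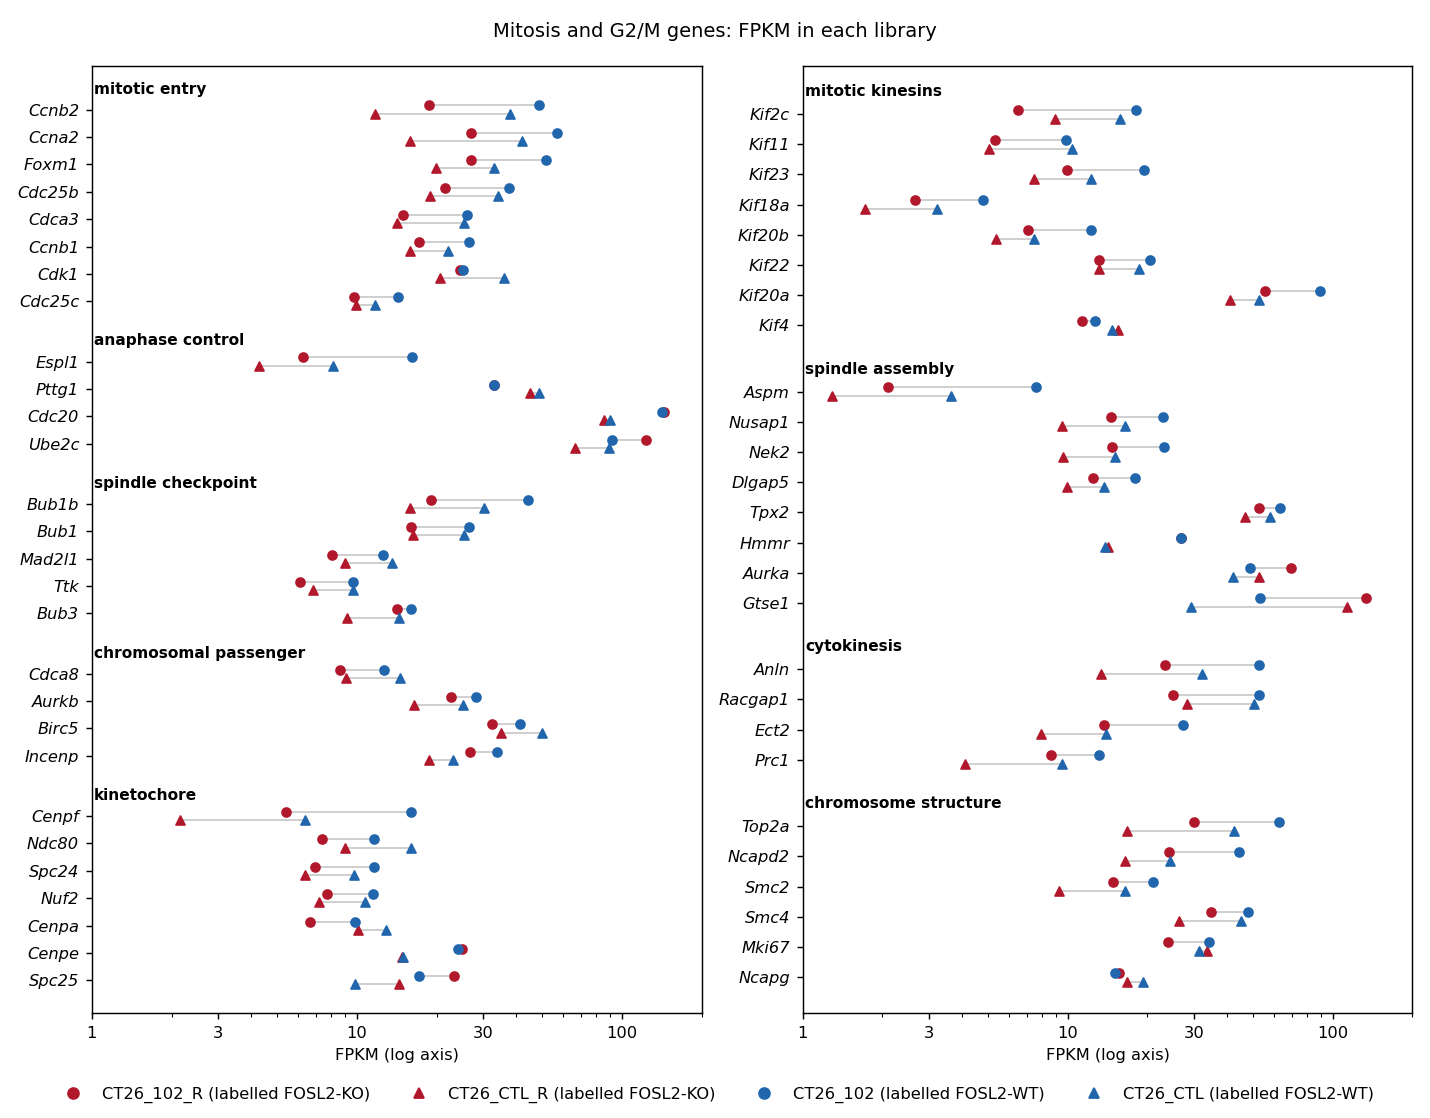
FPKM (log axis) of each of the 54 genes in the 4 libraries, by functional subgroup, with 1 point for each library and no error bars, since each is a single library. In 40 of 54 genes both libraries labelled KO lie below both labelled WT, against 21.1% of all tested genes. Gtse1 and Aurka are the 2 with both above, against 22.3%.

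In level, the 54 genes summed to 1356 and 1057 FPKM in the libraries labelled KO, against 1718 and 1377 FPKM in those labelled WT. That was 0.363% and 0.262% of all FPKM in the libraries labelled KO, and 0.494% and 0.365% in those labelled WT. The sum therefore stood at 0.789 of its WT-labelled partner in the CT26_102 stem and at 0.768 in the CT26_CTL stem. A few abundant genes that did not pass, such as Cdc20 and Ube2c, and the increase of Gtse1 are included in these sums. In 40 of the 54 genes (74.1%) both libraries labelled KO lay below both labelled WT, against 21.1% of all tested genes. In 2 (Aurka and Gtse1) both lay above, against 22.3% of all tested genes.

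Among the genes of mitotic entry, 5 of 8 fell and 0 rose, with a median log2 difference of -0.79. Ccnb2, which activates Cdk1, had 18.8 and 11.8 FPKM in the libraries labelled KO, against 48.8 and 37.9 FPKM in those labelled WT. It fell by 1.47 ± 0.14 on the log2 scale (adjusted p = 0.0179), the lowest difference of the 54 genes. Ccna2, the cyclin of S phase and G2, had 26.9 and 15.8 FPKM in the libraries labelled KO, against 56.7 and 42.0 FPKM in those labelled WT, a log2 difference of -1.20 ± 0.14 (adjusted p = 0.0201). In both cyclins the labelled groups did not overlap, and the CT26_CTL_R library was the lowest. Foxm1, the transcription factor that drives many of the other genes, had 27.1 and 19.9 FPKM in the libraries labelled KO, against 51.6 and 32.9 FPKM in those labelled WT (log2 difference -0.80, adjusted p = 0.0312). Cdc25b, a phosphatase that removes inhibitory phosphates from Cdk1, had 21.5 and 19.0 FPKM in the libraries labelled KO, against 37.6 and 34.0 FPKM in those labelled WT (log2 difference -0.79, adjusted p = 0.0294). Cdca3, a protein linked to the breakdown of the Cdk1 inhibitor kinase Wee1, had 14.9 and 14.2 FPKM in the libraries labelled KO, against 26 and 25.4 FPKM in those labelled WT (log2 difference -0.78, adjusted p = 0.0313). These 3 genes fell by close to equal amounts.

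The kinase and its first cyclin did not pass. Ccnb1, the main partner of Cdk1 in mitosis, had 17.2 and 15.8 FPKM in the libraries labelled KO, against 26.6 and 22.1 FPKM in those labelled WT, a log2 difference of -0.53 ± 0.13 (adjusted p = 0.0566). Cdk1 had 24.6 and 20.6 FPKM in the libraries labelled KO, against 25.2 and 35.9 FPKM in those labelled WT, a log2 difference of -0.40 ± 0.20 (adjusted p = 0.22). Nearly all of that difference lay in the CT26_CTL stem, where the ratio of labelled KO to labelled WT was 0.574, against 0.976 in the CT26_102 stem. Cdc25c, a second phosphatase of the Cdc25 family, had the highest difference of the subgroup, with 9.74 and 9.91 FPKM in the libraries labelled KO, against 14.4 and 11.7 FPKM in those labelled WT (log2 difference -0.37 ± 0.14, adjusted p = 0.143). Pseudogenes of both cyclins are also listed, and Ccnb1-ps stood at 2.28 and 1.47 FPKM in the libraries labelled KO, against 3.83 and 3.55 FPKM in those labelled WT, and Ccnb2-ps at 0.494 and 0.299 FPKM in the libraries labelled KO, against 0.525 and 0.547 FPKM in those labelled WT. How reads were shared between a cyclin and its copy is not given in the sources used here, so the values of both cyclins are uncertain in that respect.

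Among the regulators of anaphase onset 1 of 4 fell and 0 rose, with a median of -0.04. Espl1, which encodes separase, the protease that cuts cohesin, had 6.28 and 4.26 FPKM in the libraries labelled KO, against 16.1 and 8.14 FPKM in those labelled WT, a log2 difference of -1.02 ± 0.16 (adjusted p = 0.0317). Its inhibitor securin, Pttg1, had 33.0 and 44.9 FPKM in the libraries labelled KO, against 33.0 and 48.6 FPKM in those labelled WT (log2 difference -0.06 ± 0.12, adjusted p = 0.758). Cdc20, which activates the anaphase-promoting complex, had 145 and 85.9 FPKM in the libraries labelled KO, against 142 and 90.4 FPKM in those labelled WT (log2 difference -0.02 ± 0.11, adjusted p = 0.901). The groups overlapped fully for both genes, and the libraries paired by stem instead. Ube2c, the ubiquitin-conjugating enzyme of the same complex, had 123 and 66.3 FPKM in the libraries labelled KO, against 91.7 and 89.8 FPKM in those labelled WT. Its difference was 0.42 in the CT26_102 stem and -0.43 in the CT26_CTL stem, and the fitted value was -0.01 ± 0.22 (adjusted p = 0.99). Exons of Ube2c overlap those of Tnnc2 over 592 bases, and the strandedness of the libraries is not given in the sources used here.

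In the spindle checkpoint 2 of 5 genes fell. All 5 had both libraries labelled KO below both labelled WT, as had 21.1% of all tested genes. Bub1b, which encodes the BubR1 subunit of the mitotic checkpoint complex, had 19.1 and 15.8 FPKM in the libraries labelled KO, against 44.1 and 30.1 FPKM in those labelled WT, a log2 difference of -1.03 ± 0.14 (adjusted p = 0.0251). Bub1, the checkpoint kinase at the kinetochore, had 16.1 and 16.3 FPKM in the libraries labelled KO, against 26.4 and 25.4 FPKM in those labelled WT (log2 difference -0.65 ± 0.12, adjusted p = 0.0413), a call lost without the variance trend. Bub3, their shared binding partner, had the highest difference, with 14.2 and 9.18 FPKM in the libraries labelled KO, against 16 and 14.4 FPKM in those labelled WT (log2 difference -0.38 ± 0.16, adjusted p = 0.16). Mad2l1, the Mad2 subunit that binds Cdc20, and the kinase Ttk, which starts checkpoint signalling, had log2 differences of -0.56 (adjusted p = 0.0531) and -0.52 (adjusted p = 0.064).

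None of the 4 chromosomal passenger genes passed. In 3 of them both libraries labelled KO lay below both labelled WT, against 21.1% of all tested genes. This complex corrects faulty attachments and works again in cytokinesis. Cdca8, which encodes borealin, had 8.65 and 9.08 FPKM in the libraries labelled KO, against 12.6 and 14.5 FPKM in those labelled WT (log2 difference -0.56 ± 0.13, adjusted p = 0.055). Aurkb, its kinase, had 22.8 and 16.4 FPKM in the libraries labelled KO, against 28.2 and 25.1 FPKM in those labelled WT (log2 difference -0.44 ± 0.14, adjusted p = 0.0909). Birc5, which encodes survivin, had a log2 difference of -0.42 (adjusted p = 0.0802). Incenp, the scaffold of the complex, had 26.6 and 18.6 FPKM in the libraries labelled KO, against 33.7 and 23.1 FPKM in those labelled WT, a log2 difference of -0.31 ± 0.12 (adjusted p = 0.141). Its groups overlapped, because CT26_102_R lay above CT26_CTL.

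Kinetochore genes were mixed, with 3 of 7 lower, 0 higher and 4 that did not pass. Cenpf, a large protein of the outer kinetochore, had 5.42 and 2.15 FPKM in the libraries labelled KO, against 16 and 6.4 FPKM in those labelled WT, a log2 difference of -1.32 ± 0.14 (adjusted p = 0.0191). Each library labelled KO held about the same fraction of its partner, 0.339 in the CT26_102 stem and 0.336 in the CT26_CTL stem. The Ndc80 complex, which grips the microtubule, was split. Ndc80 had 7.37 and 9.06 FPKM in the libraries labelled KO, against 11.6 and 15.9 FPKM in those labelled WT (log2 difference -0.67 ± 0.13, adjusted p = 0.0428), and Spc24 also fell (log2 difference -0.60, adjusted p = 0.049), a call lost with a pseudocount of 0.1, with median-of-ratios rescaling and without the variance trend. Nuf2 had a log2 difference of -0.52 (adjusted p = 0.0602). Spc25, the other subunit, had 23.3 and 14.4 FPKM in the libraries labelled KO, against 17.2 and 9.86 FPKM in those labelled WT, a log2 difference of 0.46 ± 0.13 (adjusted p = 0.073). It was higher in the library labelled KO of each stem, in which it differed in sign from its 3 partners. Cenpa, the histone H3 variant that marks centromeres, had a log2 difference of -0.41 (adjusted p = 0.103), and Cenpe, a kinesin of the kinetochore, 0.01 ± 0.12 (adjusted p = 0.951). With upper-quartile rescaling the value of Cenpe was -0.046.

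Of 8 mitotic kinesins 4 fell and 0 rose, with a median of -0.61. Kif2c had 6.47 and 8.99 FPKM in the libraries labelled KO, against 18.1 and 15.8 FPKM in those labelled WT, a log2 difference of -1.05 ± 0.19 (adjusted p = 0.0367). Kif11, the motor that pushes spindle poles apart, had 5.31 and 5.05 FPKM in the libraries labelled KO, against 9.85 and 10.4 FPKM in those labelled WT (log2 difference -0.85 ± 0.13, adjusted p = 0.0311). Both genes had groups that did not overlap, as did Kif23 of the central spindle (log2 difference -0.77, adjusted p = 0.0374) and Kif18a, which limits microtubule length (log2 difference -0.65, adjusted p = 0.0469). Kif20a and Kif20b, motors of late mitosis, had log2 differences of -0.52 (adjusted p = 0.063) and -0.57 (adjusted p = 0.065), and the chromokinesin Kif22 had -0.53 (adjusted p = 0.0573). The groups of Kif20b and Kif22 did not overlap either, although neither gene passed. Of all tested genes 21.1% had both libraries labelled KO below both labelled WT. Kif4, the other chromokinesin, had the highest difference, with 11.3 and 15.6 FPKM in the libraries labelled KO, against 12.7 and 14.6 FPKM in those labelled WT (log2 difference -0.04 ± 0.14, adjusted p = 0.864).

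Spindle assembly factors held the single increase, with 3 of 8 lower and 1 higher. Gtse1 had 134 and 114 FPKM in the libraries labelled KO, against 53.0 and 29.1 FPKM in those labelled WT, a log2 difference of 1.62 ± 0.17 (adjusted p = 0.0198). It stood 2.52 times higher in CT26_102_R than in CT26_102 and 3.91 times higher in CT26_CTL_R than in CT26_CTL. Its product stabilises microtubules in mitosis and also restrains p53, and the mouse gene is known as a p53-inducible gene. Cdkn1a, another p53 target, which encodes the cell cycle inhibitor p21, stood at 359 and 377 FPKM in the libraries labelled KO, against 92.2 and 94.6 FPKM in those labelled WT. A relation between the 2 genes was not tested. Aspm, a protein of spindle poles, had 2.10 and 1.29 FPKM in the libraries labelled KO, against 7.63 and 3.62 FPKM in those labelled WT, a log2 difference of -1.24 ± 0.17 (adjusted p = 0.0254). Nusap1, which bundles microtubules near chromatin, had 14.5 and 9.49 FPKM in the libraries labelled KO, against 22.9 and 16.4 FPKM in those labelled WT (log2 difference -0.68 ± 0.13, adjusted p = 0.04). Nek2, a kinase of centrosome separation, also fell (log2 difference -0.61, adjusted p = 0.0451), a call lost without the variance trend.

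Aurka, the kinase of spindle poles, had 69.5 and 52.8 FPKM in the libraries labelled KO, against 48.6 and 42.0 FPKM in those labelled WT, a log2 difference of 0.41 ± 0.12 (adjusted p = 0.0791). Its groups did not overlap, with both libraries labelled KO above, but it did not pass. Tpx2, which activates Aurora A, had a log2 difference of -0.29 (adjusted p = 0.143), and Dlgap5, a microtubule-binding protein of the spindle, had -0.46 (adjusted p = 0.0744). Hmmr, a spindle protein that binds Tpx2, had 26.7 and 14.2 FPKM in the libraries labelled KO, against 26.8 and 13.8 FPKM in those labelled WT (log2 difference 0.02 ± 0.12, adjusted p = 0.936). With upper-quartile rescaling this value was -0.043. Because of Gtse1 and Aurka, the summed level of this subgroup was 1.24 times higher in the library labelled KO of the CT26_102 stem and 1.34 times higher in that of the CT26_CTL stem, while its median gene difference was -0.37.

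All 4 cytokinesis genes fell, with a median of -0.89. Anln, which organises the contractile ring, had 23.3 and 13.4 FPKM in the libraries labelled KO, against 52.7 and 32.1 FPKM in those labelled WT, a log2 difference of -1.17 ± 0.12 (adjusted p = 0.0188). Racgap1, a subunit of centralspindlin, had 25.0 and 28.3 FPKM in the libraries labelled KO, against 52.9 and 50.6 FPKM in those labelled WT (log2 difference -0.93 ± 0.13, adjusted p = 0.0252). Its partner Kif23 fell too, as given above. Ect2, which activates RhoA at the cleavage site, had 13.7 and 7.93 FPKM in the libraries labelled KO, against 27.3 and 14.0 FPKM in those labelled WT (log2 difference -0.84 ± 0.13, adjusted p = 0.031). Prc1, which bundles the central spindle, had 8.65 and 4.08 FPKM in the libraries labelled KO, against 13.2 and 9.50 FPKM in those labelled WT (log2 difference -0.80 ± 0.17, adjusted p = 0.047). For all 4 genes both libraries labelled KO lay below both labelled WT, as for 21.1% of all tested genes. The call of Prc1 was lost with a pseudocount of 0.1 and without the variance trend, and 911 bases of its exons overlap Rccd1.

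Among genes of chromosome structure 3 of 6 fell. Top2a, which untangles sister DNA, had 29.9 and 16.7 FPKM in the libraries labelled KO, against 62.8 and 42.3 FPKM in those labelled WT, a log2 difference of -1.17 ± 0.13 (adjusted p = 0.0198). Ncapd2, a condensin I subunit, had 24.1 and 16.4 FPKM in the libraries labelled KO, against 44.2 and 24.3 FPKM in those labelled WT (log2 difference -0.70 ± 0.14, adjusted p = 0.0433), a call lost without the variance trend. The condensin ATPases differed little from each other, Smc4 at -0.60 (adjusted p = 0.0498) and Smc2 at -0.62 (adjusted p = 0.0529), although only Smc4 passed, and its call was lost with a pseudocount of 0.1 and without the variance trend. Ncapg, another condensin I subunit, had 15.6 and 16.7 FPKM in the libraries labelled KO, against 15.1 and 19.2 FPKM in those labelled WT (log2 difference -0.07 ± 0.14, adjusted p = 0.724). Mki67, whose product Ki-67 coats mitotic chromosomes and is the usual marker of cycling cells, had 23.9 and 33.5 FPKM in the libraries labelled KO, against 34.2 and 31.4 FPKM in those labelled WT (log2 difference -0.20 ± 0.18, adjusted p = 0.451). It was lower only in the CT26_102 stem, and its groups overlapped.

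**Figure D2:**
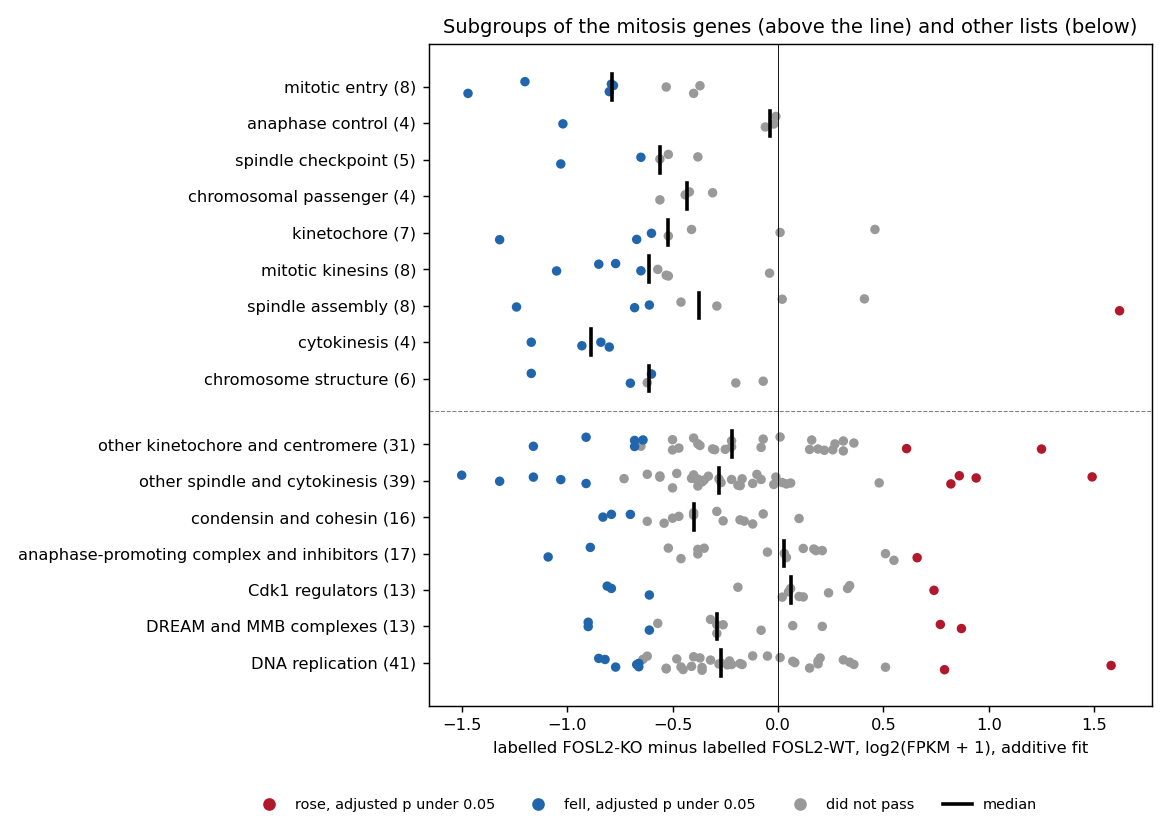
Log2 difference (labelled KO minus labelled WT, log2(FPKM + 1), additive fit) of each gene by subgroup of the 54 genes above the dashed line and by other list below it, with the number of tested genes in parentheses. Blue points fell, the red points rose, grey points did not pass and black bars are medians; all 4 cytokinesis genes are blue and Gtse1 is the 1 red point above the line.

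The libraries of the CT26_102 and CT26_CTL stems gave separate values for the same labelled difference, with no library in common. The median log2 difference over the 54 genes was -0.59 in each stem, against 0.03 over all tested genes in CT26_102 and -0.02 in CT26_CTL. Of the 54 genes 44 were lower in the library labelled KO of both stems, against 38.2% of all tested genes. A further 3 were higher in both (Gtse1, Aurka and Spc25) and 7 differed in sign between stems. The shares of all tested genes that did so were not counted, so neither count can be called low or high. Past a 1.5-fold difference on FPKM + 1, 27 of 54 (50%) were lower in each stem, against 9.63% of all tested genes in CT26_102 and 8.87% in CT26_CTL. Only 1 was that much higher in either stem, against 13.8% and 9.39% of all tested genes. Over the 54 genes the differences in the 2 stems had a Pearson r of 0.838 and a Spearman rho of 0.763, a description across genes, which are not independent replicates. The 25 genes that fell stood at 0.275 to 0.723 of their partner in CT26_102 and at 0.31 to 0.675 in CT26_CTL. With 1 library in each cell of the design, a difference between the stems in these values could not be tested.

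**Figure D3:**
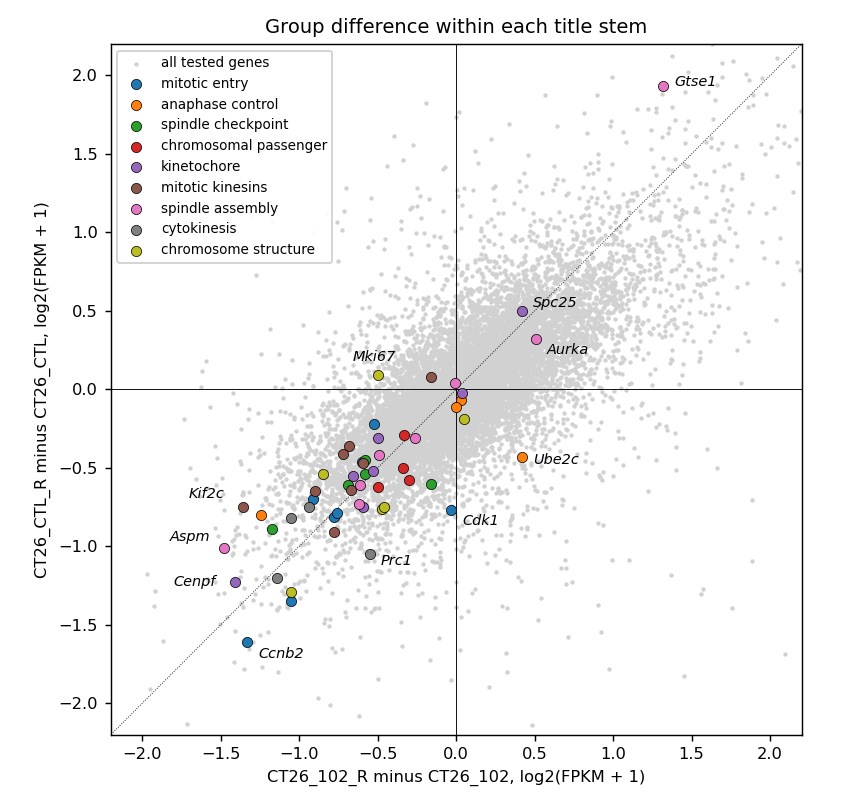
Log2 difference of labelled KO minus labelled WT within CT26_102 (horizontal) against that within CT26_CTL (vertical), on log2(FPKM + 1), with 1 point a gene and the 54 mitosis genes drawn over all tested genes. The axes end at 2.2 in each direction and leave out 91 of the 11955 genes; 44 of the 54 genes lie in the lower left and Gtse1 is the only one of the 54 that was over 1.5-fold higher in both stems.

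The title stem was the second division of the libraries, CT26_102_R and CT26_102 against CT26_CTL_R and CT26_CTL. Here 17 of the 54 genes (31.5%) were higher in CT26_102, 1 (Pttg1) was lower and 36 did not pass, while 12.5% of all tested genes were higher and 9.44% lower. The median log2 difference was 0.35, against 0.054 over all tested genes. With the stem as the only term 0 of the 54 genes passed and 3 had an unadjusted p under 0.05, against 16.7% of all tested genes, and without the filter 0 genes passed (29 of the 54 at an unadjusted p under 0.05, against 21% of all genes in that fit). With median-of-ratios rescaling 11 of the 54 were higher, against 1190 of the 11955 tested genes (9.95%). Without the variance trend 11 of the 54 were, against 1428 of the 11955 (11.9%). Calls by stem that were lost under one or both of these settings are those of Ccna2, Foxm1, Espl1, Incenp, Kif20a, Nusap1, Prc1 and Pttg1. In 7 genes (13%) both CT26_102 libraries lay above both CT26_CTL libraries, against 28% of all tested genes, and in 4 (7.41%) below, against 20.9%. Of the 54 genes 38 were higher in CT26_102 both among libraries with the suffix R and among those without it. Of the 11955 tested genes 5191 (43.4%) were. Past 1.5-fold, 13 of the 54 (24.1%) were higher among the R libraries, against 15.2% of all tested genes, and 15 (27.8%) among the others, against 14%.

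Cenpf had the largest difference by stem, with 5.42 and 16 FPKM in CT26_102_R and CT26_102, against 2.15 and 6.4 FPKM in CT26_CTL_R and CT26_CTL (log2 difference 1.11 ± 0.14, adjusted p = 0.0129). Within each suffix it was about 2.5 times higher in CT26_102. Hmmr had 26.7 and 26.8 FPKM in CT26_102_R and CT26_102, against 14.2 and 13.8 FPKM in CT26_CTL_R and CT26_CTL, a log2 difference of 0.89 ± 0.12 (adjusted p = 0.0156). Its 4 values thus fell into pairs by stem and not by labelled group, and those of Cenpe paired by stem too, with 24.9 and 24.1 FPKM in the CT26_102 libraries, against 14.8 and 15 FPKM in the CT26_CTL libraries (log2 difference 0.68, adjusted p = 0.0255). Cdc20 also paired by stem (log2 difference 0.70 ± 0.11, adjusted p = 0.0179). Ect2 differed by 0.82 ± 0.13 (adjusted p = 0.0204), Anln by 0.73 ± 0.12 (adjusted p = 0.0212) and Spc25 by 0.71 ± 0.13 (adjusted p = 0.0249) on the log2 scale, all higher in CT26_102.

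Of the 54 genes 11 both fell between the labelled groups and were higher in CT26_102, against 1.12% of all tested genes, among them Ccna2, Foxm1, Espl1, Cenpf, Anln, Ect2 and Top2a. In these genes CT26_CTL_R was the lowest and CT26_102 the highest library, an order that largely follows from both calls by which they were picked. Of the cytokinesis genes 3 of 4 were higher in CT26_102, with a median of 0.70, against 12.5% of all tested genes. Spindle assembly genes had 3 of 8 and a median of 0.52. The calls of Prc1 and Nusap1, counted here, were lost under other settings. Spindle checkpoint genes had 0 of 5 and a median of 0.02, and with so few genes 0 cannot be told from the share of all genes. Within both suffixes 9 of the 54 genes were lower in CT26_102, and the share of all tested genes that were was not counted. Pttg1 was the only one of the 54 called lower, a call that was lost without the variance trend, with 33.0 and 33.0 FPKM in the CT26_102 libraries, against 44.9 and 48.6 FPKM in the CT26_CTL libraries (log2 difference -0.49 ± 0.12, adjusted p = 0.0452).

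**Figure D4:**
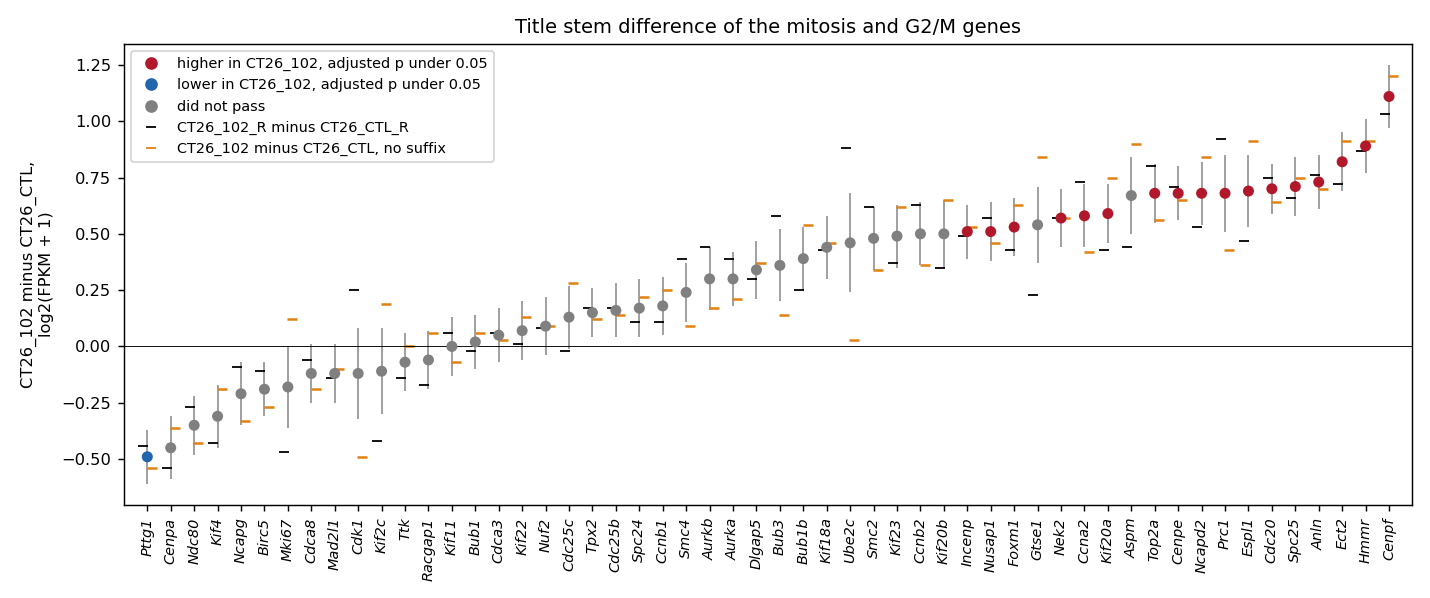
Log2 difference by title stem (CT26_102 minus CT26_CTL, log2(FPKM + 1), vertical) of each of the 54 genes from the additive fit, with standard errors. Genes are ordered from left to right by this difference, from Pttg1 to Cenpf. Red points were higher in CT26_102, the blue point (Pttg1) was lower and grey points did not pass. Black dashes give the difference among libraries with the suffix R, and orange dashes that among libraries without it.

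Other genes of the same processes, in 7 lists that hold none of the 54, were counted in the same fit. Of 170 tested genes 27 fell (15.9%), 12 rose (7.06%) and 131 did not pass, with a median of -0.26. Over all tested genes 5.32% fell and 7.57% rose, with a median of 0.004, so the share that rose was near that of all genes. The other kinetochore and centromere genes had 5 of 31 lower and 2 higher. Cenpp, an inner kinetochore protein, had 0.953 and 1.71 FPKM in the libraries labelled KO, against 3.26 and 5.23 FPKM in those labelled WT (log2 difference -1.16, adjusted p = 0.022), and Cenpt, which links DNA to the Ndc80 complex, had 36.1 and 22.0 FPKM in the libraries labelled KO, against 13.0 and 9.70 FPKM in those labelled WT (log2 difference 1.25, adjusted p = 0.0201). Among other spindle and cytokinesis genes 5 of 39 fell and 4 rose, with the lowest value for Sapcd2 (log2 difference -1.50, adjusted p = 0.0175) and the highest for Psrc1, a microtubule-binding protein, which had 70.5 and 55.0 FPKM in the libraries labelled KO, against 35 and 13.1 FPKM in those labelled WT (log2 difference 1.49 ± 0.25, adjusted p = 0.0342). Of condensin and cohesin genes 3 of 16 fell and 0 rose, led by Sgo2a, which protects centromeric cohesin (log2 difference -0.83, adjusted p = 0.035), with Nipbl, the cohesin loader, highest at 0.10 (adjusted p = 0.607).

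The last 4 lists cover the machinery that drives and times the cycle. Their counts stand beside 5.32% lower and 7.57% higher over all tested genes. Of the anaphase-promoting complex and its inhibitors 2 of 17 fell and 1 rose, with a median of 0.03. Fbxo5, which encodes the inhibitor Emi1, had 10.2 and 9.91 FPKM in the libraries labelled KO, against 20.9 and 24.4 FPKM in those labelled WT (log2 difference -1.09, adjusted p = 0.0226), and the subunit Anapc10 was highest at 0.66 (adjusted p = 0.0457). Among Cdk1 regulators 3 of 13 fell and 1 rose, with a median of 0.06. Wee1, the kinase that inhibits Cdk1, had 5.93 and 3.14 FPKM in the libraries labelled KO, against 9.84 and 7.11 FPKM in those labelled WT (log2 difference -0.81, adjusted p = 0.0393), while Ppp2r2d, a regulatory subunit of the phosphatase PP2A, was highest at 0.74 (adjusted p = 0.0423). Of the DREAM and MuvB genes 3 of 13 fell and 2 rose. Rbl1, which encodes the p107 pocket protein, had 5.20 and 3.96 FPKM in the libraries labelled KO, against 10.3 and 8.48 FPKM in those labelled WT (log2 difference -0.90, adjusted p = 0.028), and Lin52, a core MuvB subunit, had 10.3 and 6.42 FPKM in the libraries labelled KO, against 4.38 and 3.67 FPKM in those labelled WT (log2 difference 0.87, adjusted p = 0.0385). Of DNA replication genes, which belong to S phase, 6 of 41 fell and 2 rose, with a median of -0.27. Lig1, the DNA ligase of the lagging strand, was lowest at -0.85 (adjusted p = 0.0362), and the flap nuclease Fen1 rose, with 27.9 and 27.1 FPKM in the libraries labelled KO, against 8.37 and 8.64 FPKM in those labelled WT (log2 difference 1.58, adjusted p = 0.0161).

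Gene length moved with the labelled difference and with the stem difference. Over the 54 genes the group difference had a Pearson r of -0.353 with the log2 of exonic length, and over 11949 tested genes it was -0.156. For the stem difference the Pearson r was 0.160 over the 54 genes and 0.209 over the tested genes. All are descriptions across genes that share the same 4 libraries. The 54 genes had a median exonic length of 5193 bases, against 3887 bases for the tested genes. With the trend over length removed, their median group difference was -0.514. Exons of 17 of the 54 genes overlap those of another gene, 7 by over 500 bases, and the part of such overlaps in the values was not tested.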

How the data were processed

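Gene expression in 4 CT26 libraries was taken from a deposited table of FPKM per gene and library, which the authors computed. Per the labels, libraries were prepared from total RNA using a SMARTer kit for mRNA. Aligner, quantification tool, strandedness and annotation were not given in the sources used here, and the submitters' processing notes name the builds GRCm38 and mm10, which are 1 assembly. Depth was approximated by the step that 1 read makes in low FPKM values, and no read counts were recovered, so no count test was run.

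Genes reaching 1 FPKM in 2 or more libraries were tested on log2(FPKM + 1), a scale that understates changes of low genes. R 4.3.3 with limma 3.58.1 (lmFit, eBayes with a mean-variance trend) was fitted to all 4 libraries with the labelled group and the title stem as terms, two-sided, with Benjamini-Hochberg adjustment over 11955 genes and a threshold of 0.05. The stem is the shared part of a title, so it pairs 1 library of each labelled group. The fit has 1 residual degree of freedom, the interaction of stem and group, to which limma's prior added 4.01. The procedure was run on simulated data whose errors were drawn independently, with a spread that the fit itself had estimated. That run met the assumptions of the fit, so it could not show whether the 4 libraries meet them. Positions and exonic lengths came from GENCODE on GRCm38. Matches of motifs were searched on both strands.

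The 54 genes, the subgroups and the other lists were chosen with earlier results of these data known. Named with all values were, per subgroup, the 2 lowest and the highest gene, genes whose sign differed between stems, the 5 largest stem differences and, per other list, the lowest and the highest gene; further genes were named to account for all 54. Alternatives were another pseudocount (0.1), other filters, 2 rescalings, no variance trend, a fit without the second term, a length correction and leaving out each library.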

Additional observations from a re-analysis of the deposited data

Results flagged for a closer look

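In 7 of the 54 genes the library labelled KO lay above its partner in one stem and below it in the other. The share of all tested genes that did so was not counted. Each value here is the log2 difference (labelled KO minus labelled WT) in CT26_102 minus that in CT26_CTL, and with 1 library in each cell the difference was not tested. Ube2c, the ubiquitin-conjugating enzyme of the anaphase-promoting complex, gave 0.85, from a difference of 0.42 in CT26_102 and -0.43 in CT26_CTL. Mki67, the marker of cycling cells, gave -0.59, from -0.50 in CT26_102 and 0.09 in CT26_CTL. The condensin subunit Ncapg gave 0.24 and the chromokinesin Kif4 gave -0.24. Cdc20, the activator of the anaphase-promoting complex, gave 0.10, the kinetochore motor Cenpe 0.06 and the spindle protein Hmmr -0.05, so in these 3 genes the sign differed although each library labelled KO lay close to its partner.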

How the results depend on the processing

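The calls depend on the filter and on the pairing by title stem. Without the filter, over 27670 genes, 0 of the 54 genes and 0 of all genes passed in either direction of either contrast. In the fit with no replicate block (the stem left out for the labelled difference, the group for the stem difference) 0 of the 54 genes passed in either contrast, and over all genes 1 was lower and 0 higher by labelled group, and 6 lower and 28 higher by stem. Unadjusted p was under 0.05 for 1281 genes by group and 2000 by stem in that fit. In that fit, leaving out CT26_102_R, CT26_CTL_R, CT26_102 or CT26_CTL in turn gave 0 of the 54 genes in either contrast, 3, 1, 2 and 2 of all genes lower and 0, 1, 4 and 9 higher by group, and 3, 0, 0 and 1 lower and 13, 0, 4 and 6 higher by stem. Leaving out 1 library in the fit with both terms gives values with no test. The group value is then only the difference within the stem that keeps both libraries, and the stem value that within the complete suffix. These values therefore repeat the differences within stems and suffixes given above. The median of the 54 genes was -0.588 to -0.587 by group and 0.265 to 0.356 by stem.

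The median by group was -0.613 with a pseudocount of 0.1, -0.618 with upper-quartile rescaling, -0.566 with median-of-ratios rescaling and -0.514 with the length trend removed. Upper-quartile rescaling called 1011 of all genes lower. By stem, 11 of the 54 genes were higher with median-of-ratios rescaling, and 11 higher and 0 lower without the variance trend. With upper-quartile rescaling the group differences of Cenpe and Hmmr changed sign, to -0.046 and -0.043, and with median-of-ratios rescaling the stem difference of Bub1 changed to -0.044; all 3 lie near 0. Of the 26 calls by group, 23 were shared with a pseudocount of 0.1, 26 with a filter of 1 FPKM in every library, 26 with upper-quartile rescaling, 25 with median-of-ratios rescaling and 20 without the variance trend. The cause of these shifts was not tested. With 2 libraries on a side, 1 residual degree of freedom and no read counts, the precision is limited.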
